A study of Mus musculus with 7 samples.

Results

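The miRNAs of the miR-23, miR-24 and miR-27 clusters were followed in mouse testes before and after ex vivo culture and in the adult. Members were all listed miRNAs whose name begins with miR-23a-, miR-23b-, miR-24-, miR-27a-, miR-27b- or miR-3074, which gave 9 of the 331 mature miRNAs measured. These were mmu-miR-23a-3p, mmu-miR-23b-3p, mmu-miR-24-3p, mmu-miR-24-2-5p, mmu-miR-27a-3p, mmu-miR-27a-5p, mmu-miR-27b-3p, mmu-miR-27b-5p and mmu-miR-3074-5p, named below without the species prefix. All 7 small RNA libraries came from testes of CD1 mice, and each condition had 1 library. T6 and T10 were uncultured prepuberal testes of 6.5 and 10.5 days post-partum (dpp), ages that the labels round to 6 and 10 days. T6-12K and T10-12K were explants of these ages kept for 12 days on agarose at a gas-liquid interface in medium with KSR, a serum replacement. T6-12A and T10-12A were the matching explants in medium with AlbuMAX I, a lipid-rich albumin, and TAD was uncultured testis of adults aged 2 months. The 6.5 dpp testes were taken before meiosis begins and the 10.5 dpp testes once it had begun. Without replicate libraries, no difference could be set against the variation between animals, and every interval below is a 95% interval for counting error only.

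A miRNA is cut from a hairpin in a longer transcript, and the mature strand guides Argonaute proteins to messenger RNAs that pair with its seed, the bases near its 5′ end. The miR-23, miR-27 and miR-24 hairpins lie close together in a pair of related clusters, and the hairpins of a cluster can be cut from the same transcript. Members of both clusters are best known for roles in blood vessels, muscle and immune cells. The tissue here was whole testis, in which germ cells, Sertoli cells, peritubular cells, vessels and blood cells are measured together, so fewer cells of a type and less RNA per cell cannot be told apart.

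On GRCm38, the first cluster lies on chromosome 8 (chr8:84208518-84208921, 404 bases). It holds Mir23a, Mir27a and Mir24-2 on the plus strand and Mir3074-2 on the minus strand. In GENCODE mouse release 21, Mir24-2 overlaps an exon of the long non-coding RNA gene Gm26532 on the same strand, and no other gene overlaps the remaining hairpins of this cluster. The second cluster lies on chromosome 13 (chr13:63300484-63301283, 800 bases), with Mir23b, Mir27b and Mir24-1 on the plus strand and Mir3074-1 on the minus strand. It lies inside the protein-coding gene 2010111I01Rik on the plus strand, where Mir23b is intronic and Mir27b and Mir24-1 overlap an exon of at least 1 transcript. All 4 hairpins also lie in intronic sequence of Fancc, a gene on the minus strand. By their hairpins, 4 members belonged to chromosome 8 (miR-23a-3p, miR-27a-3p, miR-27a-5p and miR-24-2-5p) and 3 to chromosome 13 (miR-23b-3p, miR-27b-3p and miR-27b-5p). The other 2, miR-24-3p and miR-3074-5p, are encoded in both clusters with the same mature sequence.

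**Figure D1:**
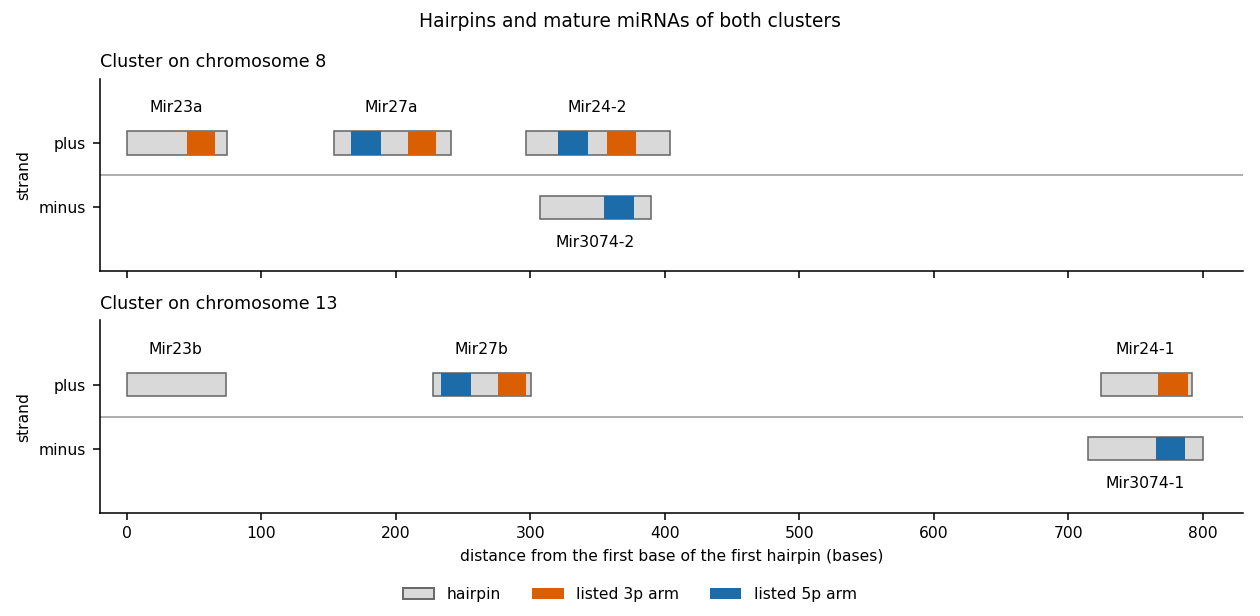
Hairpins (grey) and the mature miRNAs placed on them (3p arms orange, 5p arms blue) on the plus and minus strands of the clusters on chromosomes 8 and 13, drawn to scale against the distance in bases from the first hairpin's first base. The chromosome 8 cluster spans 404 bases and the chromosome 13 cluster 800 bases, and at both the miR-24-3p and miR-3074-5p blocks face each other on opposite strands.

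Mature sequences from RefSeq (GRCm38.p6) were matched to 8 of the 9 members, the exception being miR-23b-3p. They are printed from 5′ to 3′ with the seed, bases 2 to 8, in capitals. The first pair is shown because its members share a seed and yet differed greatly in abundance.
miR-27b-3p: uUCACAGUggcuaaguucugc
miR-27a-3p: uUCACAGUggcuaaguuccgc
Both share the seed UCACAGU, which no other of the 288 listed miRNAs with a matched sequence carries, and they differ by the single substitution U19C, with the base of miR-27b-3p first and positions counted from the 5′ end. The next pair is shown because the strands lie opposite each other.
miR-24-3p: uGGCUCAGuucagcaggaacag
miR-3074-5p: gUUCCUGCugaacugagccagu
Within both clusters these miRNAs share 20 of their 22 positions on opposite strands, and the longest complementary run is 20 bases. The other matched sequences follow.
miR-23a-3p: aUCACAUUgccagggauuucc
miR-24-2-5p: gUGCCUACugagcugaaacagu
miR-27b-5p: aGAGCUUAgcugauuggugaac
miR-27a-5p: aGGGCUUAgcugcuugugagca

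Between 1628770 reads (TAD) and 13397407 reads (T10) fell on listed miRNAs, and levels are given as CPM, for which every library was brought to the same total of listed miRNA reads. The smallest deposited value stood for 5 reads in 6 libraries, and its worth ranged from 0.374 CPM (T6) to 3.07 CPM (TAD), which left the adult levels the least precise. No member was listed at 0 in any library. Among the marker miRNAs, all 6 of gonad and testis were listed and summed to between 7857 and 45316 CPM. The 6 of meiotic and postmeiotic germ cells (the miR-34b, miR-34c, miR-449a and miR-449c arms) summed to 74.0 CPM in T6, 164 CPM in T10, between 614 and 1972 CPM in the cultured libraries and 25799 CPM in TAD. The endothelial markers miR-126a-3p and miR-126a-5p summed to 190 CPM in T6, 181 CPM in T10, between 124 and 249 CPM in the cultured libraries and 405 CPM in TAD. Of the 9 mesenchymal markers, miR-143-3p held nearly all reads, with 103729 CPM in T6 and 258115 CPM in TAD, whereas miR-199a-3p stood at 1932 and 713 CPM and miR-214-3p at 95.6 and 11.7 CPM. The 4 erythroid markers summed to between 445 CPM (T6-12A) and 2554 CPM (T6-12K), nearly all of it miR-486a-5p, and miR-451a and miR-144-3p were at 0 in every cultured library. The 2 leukocyte markers listed, of 5, summed to between 5.54 and 10.2 CPM in the cultured libraries and 45.4 CPM in TAD. The part of these cell types in the levels below was not tested.

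A single strand held most reads of both clusters. miR-27b-3p, the chromosome 13 form of miR-27, ranked between 15 and 29 of the 331 miRNAs, whereas the other 8 members together held between 256 CPM (T6) and 411 CPM (T6-12A). All 9 members together took between 0.405% (TAD) and 0.809% (T6-12A) of the listed reads. In the uncultured testes, miR-27b-3p stood at 7093 CPM (T6), 6747 CPM (T10) and 3780 CPM (TAD). With KSR it stood at 5042 CPM (T6-12K) and 6790 CPM (T10-12K), and with AlbuMAX I at 7676 CPM (T6-12A) and 7033 CPM (T10-12A). Its extremes were the adult testis and the 6.5 dpp testis cultured with AlbuMAX I, and the counting intervals of T6 and T10-12A overlapped, as did those of T10-12K and T10. Its near twin miR-27a-3p stood at 69.1 CPM (T6), 110.3 CPM (T10) and 114 CPM (TAD) without culture, at 127 CPM (T6-12K) and 139 CPM (T10-12K) with KSR, and at 129.7 CPM (T6-12A) and 112 CPM (T10-12A) with AlbuMAX I. T6 was the low point of miR-27a-3p, and in order of level the other 6 libraries each overlapped their neighbour.

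The 23a and 23b forms of miR-23 had unlike patterns. miR-23a-3p (chromosome 8) stood at 20.5 CPM (T6), 19.9 CPM (T10) and 24.6 CPM (TAD) without culture, at 33.6 CPM (T6-12K) and 35.1 CPM (T10-12K) with KSR, and at 34.1 CPM (T6-12A) and 31.0 CPM (T10-12A) with AlbuMAX I. The cultured libraries were thus the 4 highest, although in order of level no library was separated from its neighbour by more than counting error. miR-23b-3p (chromosome 13) stood at 54.0 CPM (T6), 35.4 CPM (T10) and 27.01 CPM (TAD) without culture, at 25.8 CPM (T6-12K) and 31.1 CPM (T10-12K) with KSR, and at 35.1 CPM (T6-12A) and 26.7 CPM (T10-12A) with AlbuMAX I. Here T6 was the highest library, separated from T10 by more than counting error, and the other 6 each overlapped their neighbour.

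miR-24-3p, the strand of both clusters, stood at 21.6 CPM (T6), 42.5 CPM (T10) and 37.5 CPM (TAD) without culture, at 48.9 CPM (T6-12K) and 62.2 CPM (T10-12K) with KSR, and at 86.9 CPM (T6-12A) and 83.6 CPM (T10-12A) with AlbuMAX I. Its antisense neighbour miR-3074-5p stood at 13.1 CPM (T6), 32.7 CPM (T10) and 37.5 CPM (TAD) without culture, at 41.9 CPM (T6-12K) and 52.3 CPM (T10-12K) with KSR, and at 70.4 CPM (T6-12A) and 71.2 CPM (T10-12A) with AlbuMAX I. For both, T6 was the lowest library and both AlbuMAX I cultures were the highest, with overlapping intervals. The remaining strands were scarce: miR-27b-5p ranged from 18.4 CPM (TAD) to 62.9 CPM (T6), miR-27a-5p from 3.68 CPM (TAD, 6 reads) to 11.6 CPM (T10-12A), and miR-24-2-5p from 5.37 CPM (T10) to 9.33 CPM (T10-12K).

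**Figure D2:**
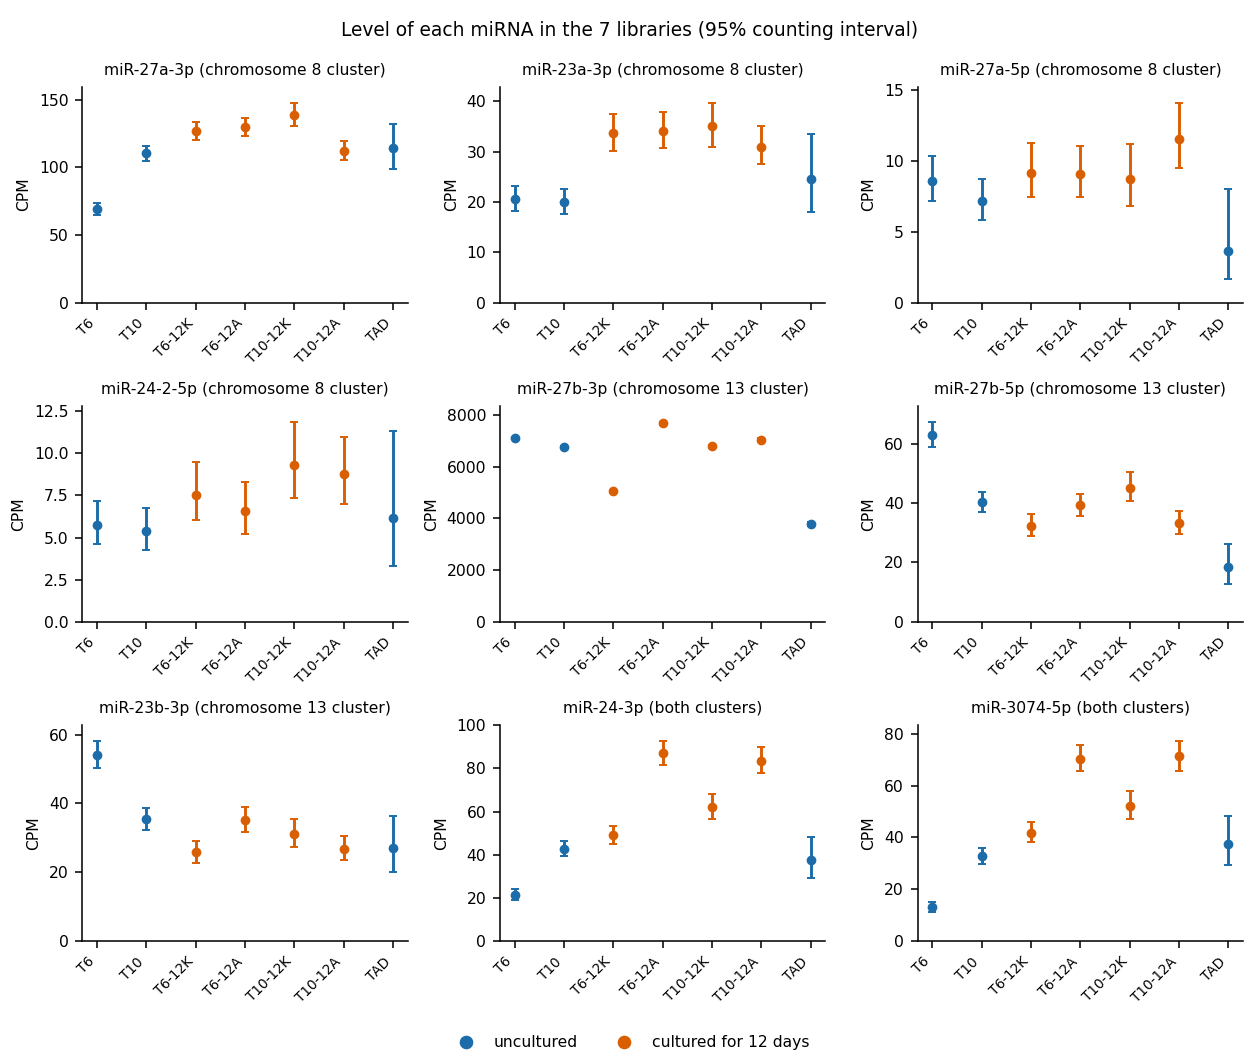
CPM of the 9 miRNAs (1 panel each, vertical axes from 0 and of different height) in the 7 libraries, uncultured in blue and cultured for 12 days in orange, with bars for the 95% Wilson interval of counting error. miR-24-3p and miR-3074-5p are lowest in T6 and highest in both AlbuMAX I cultures, whereas miR-23b-3p and miR-27b-5p are highest in T6.

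The comparison of T10 with T6 follows the testis from before to after the onset of meiosis. The strands shared by both clusters were higher at 10.5 dpp: miR-3074-5p by a log2 ratio of CPM of 1.32 (1.07 to 1.57) and miR-24-3p by 0.98 (0.78 to 1.19). miR-27a-3p was also higher, by 0.68 (0.56 to 0.79). On chromosome 13, miR-27b-5p stood at a log2 ratio of -0.65 (-0.80 to -0.49) and miR-23b-3p at -0.61 (-0.78 to -0.44), both lower at 10.5 dpp. miR-27b-3p stood at -0.07 and miR-23a-3p at -0.04, and both turned to the other sign in the values as deposited, at 0.01 and 0.04. Past 2-fold, 1 of the 9 members was higher, miR-3074-5p, and miR-24-3p stood just short, while none was lower. Of all 331 miRNAs, 10.9% were past 2-fold higher and 4.23% lower. The median log2 ratio of the members, -0.07, lay near that of all miRNAs, -0.06.

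Adult testis was then set against both prepuberal ages. miR-27b-5p was past 2-fold lower in TAD against both, with log2 ratios of -1.77 (-2.30 to -1.25) to T6 and -1.13 (-1.66 to -0.60) to T10, from 30 reads in TAD. It was the only one of the 9 members past 2-fold, none being higher, where 30.2% of all miRNAs were lower and 16.6% higher. Just outside stood miR-27b-3p, at -0.91 and -0.84, and miR-27a-5p, at -1.22 (-2.41 to -0.04) and -0.96 (-2.15 to 0.23). The miR-27a-5p ratios rested on 6 reads in TAD, and the interval to T10 held 0. miR-23b-3p was lower than in T6, at 27.01 CPM in TAD against 54.0 CPM, but its log2 ratio to T10 of -0.39 had an interval that held 0 (-0.83 to 0.06). miR-3074-5p stood 1.52 (1.10 to 1.94) above T6 but 0.20 (-0.19 to 0.58) from T10, and miR-24-3p 0.80 above T6 and -0.18 from T10. The median log2 ratio of all miRNAs was -0.41 to T6 and -0.38 to T10, against 0.09 and -0.18 for the members. No member was past 2-fold under 2 of the scalings, by median-of-ratios size factors and by the trimmed mean of M-values, and 4 were lower in the values as deposited, as were 47.4% of all miRNAs.

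In cultures of 6.5 dpp testes, miR-24-3p and miR-3074-5p were past 2-fold higher in both media. At either starting age, cultured explants were also 12 days older than their starting testis, and no uncultured testis of that age was included. Culture and added age can therefore not be told apart in these ratios. miR-24-3p stood at a log2 ratio to T6 of 1.18 (0.97 to 1.39) with KSR and 2.01 (1.82 to 2.20) with AlbuMAX I, and miR-3074-5p at 1.68 (1.42 to 1.93) and 2.43 (2.19 to 2.66). The AlbuMAX I ratio of miR-3074-5p exceeded that of 95.2% of the listed miRNAs. The chromosome 8 strands miR-27a-3p (0.87 and 0.91) and miR-23a-3p (0.71 and 0.73) were higher by nearly the same amount in both media in CPM. With median-of-ratios size factors miR-27a-3p stood at 1.86 (KSR) and 1.34 (AlbuMAX I), and miR-23a-3p at 1.70 and 1.16. The chromosome 13 strands went the other way in CPM: miR-23b-3p stood at -1.07 (KSR) and -0.62 (AlbuMAX I), and miR-27b-5p at -0.96 and -0.68. Under median-of-ratios size factors miR-23b-3p stood at -0.08 and -0.19 and miR-27b-5p at 0.03 and -0.25, so most of these differences rested on the scaling. miR-27b-3p differed between the media, at -0.49 with KSR and 0.11 with AlbuMAX I, and with median-of-ratios size factors these became 0.49 and 0.54. In all, 2 of 9 members were past 2-fold higher and none lower, beside 8.16% and 32.0% of all miRNAs. The median log2 ratio of all miRNAs was -1.21 with KSR and -0.63 with AlbuMAX I, and 9 and 8 of the 9 members lay above it.

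In cultures of 10.5 dpp testes, miR-24-3p and miR-3074-5p were again higher than at the start, by smaller ratios than at 6.5 dpp. miR-24-3p stood at a log2 ratio to T10 of 0.55 (0.37 to 0.73) with KSR and 0.98 (0.82 to 1.13) with AlbuMAX I, and miR-3074-5p at 0.68 (0.48 to 0.88) and 1.12 (0.95 to 1.30). miR-23a-3p stood at 0.81 and 0.64 and miR-24-2-5p at 0.80 and 0.70, both from chromosome 8, which at 6.5 dpp had been 0.71 and 0.73 for miR-23a-3p and 0.39 and 0.19 for miR-24-2-5p. miR-27a-3p, higher by 0.33 with KSR, stood at 0.02 (-0.10 to 0.14) with AlbuMAX I. On chromosome 13, miR-27b-3p stood at 0.01 and 0.06, and miR-23b-3p at -0.19 and -0.40, which became 0.36 and 0.17 with median-of-ratios size factors. No member was past 2-fold in both media, beside 7.85% of all miRNAs higher and 32.3% lower, but 4 were higher with median-of-ratios size factors (11.8% of all miRNAs) and 5 under the trimmed mean of M-values (16.0%). All 9 members lay above the median log2 ratio of all miRNAs, -0.76 with KSR and -0.78 with AlbuMAX I. The difference between the ages of culture start was not tested.

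**Figure D3:**
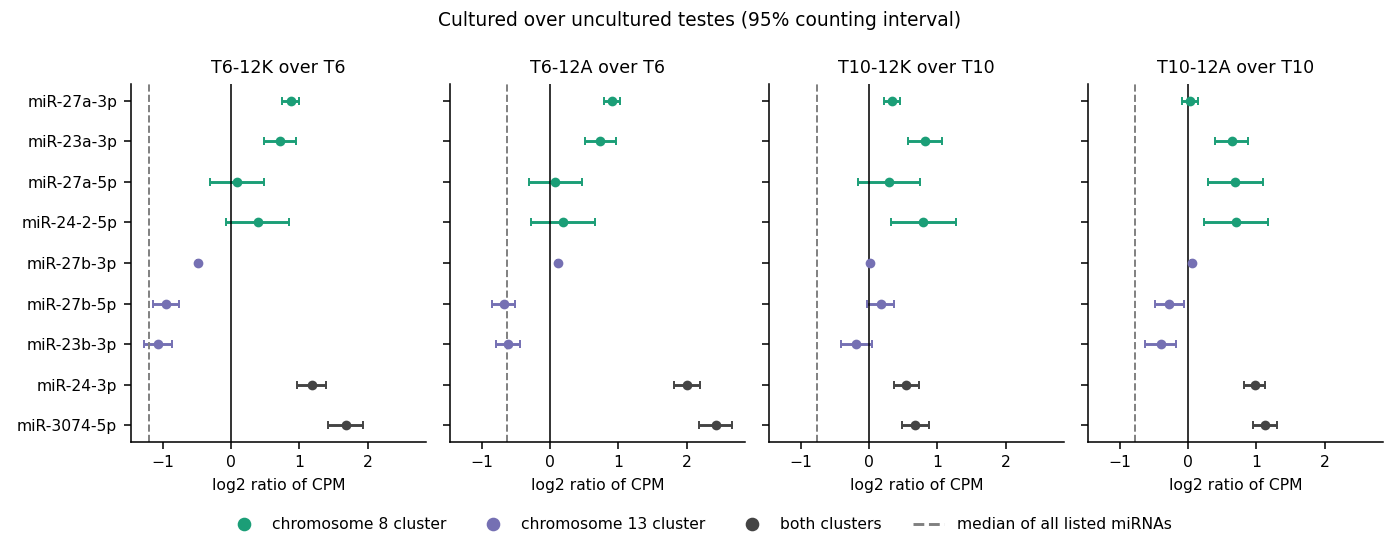
Log2 ratio of CPM of each miRNA in a cultured library over the uncultured testis of its starting age, with bars for the 95% interval of counting error, coloured by cluster, and a dashed line at the median of all listed miRNAs. The strands of both clusters (dark) have positive ratios in all 4 panels, up to 2.43 for miR-3074-5p in T6-12A. In T10-12K they lie left of miR-23a-3p (0.81) and miR-24-2-5p (0.80). The chromosome 13 strands (purple) lie left of the chromosome 8 strands (green) at 6.5 dpp, except miR-27b-3p in T6-12A, at 0.11, which exceeds miR-27a-5p at 0.08.

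Taken over all libraries, 5 of the 9 members were higher in each of the 4 cultured libraries than in any of the 3 uncultured ones. They were miR-24-3p, miR-3074-5p, miR-23a-3p, miR-27a-5p and miR-24-2-5p, and 16 of the 331 listed miRNAs, or 4.83%, showed this pattern. None of the 9 was lower in all cultured libraries, beside 20.8% of the 331. By cluster, these 5 were the strands encoded in both clusters and 3 of the 4 chromosome 8 strands, and none of the 3 chromosome 13 strands. With median-of-ratios size factors, the trimmed mean of M-values or CPM without miR-10b-5p and miR-143-3p, 7 members showed it, with miR-27a-3p and the chromosome 13 strand miR-27b-3p added, beside 11.2%, 13.3% and 8.46% of all miRNAs. In the values as deposited, 4 did, beside 5.44%. miR-27a-3p, the remaining chromosome 8 strand, missed by 112 CPM in T10-12A against 114 in TAD. The gap between the lowest cultured and the highest uncultured library was small, at a log2 ratio of 0.34 for miR-23a-3p, 0.20 for miR-24-3p, 0.16 for miR-3074-5p, 0.10 for miR-24-2-5p and 0.03 for miR-27a-5p. No member kept the gap when the counting intervals of these libraries also had to be apart (1.81% of all miRNAs did). None of the marker miRNAs was higher in every cultured library, and 3 of the 4 erythroid, 1 leukocyte, 1 mesenchymal and 1 gonad marker were lower in all of them.

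The balance between the clusters does not depend on the scaling, because both counts of a ratio come from the same library. Reads of miR-23b-3p (chromosome 13) per read of miR-23a-3p (chromosome 8) numbered 2.64 (2.29 to 3.03) in T6, 1.78 (1.53 to 2.06) in T10 and 1.10 (0.717 to 1.69) in TAD. With KSR they numbered 0.766 (0.651 to 0.902) for T6-12K and 0.887 (0.740 to 1.06) for T10-12K, and with AlbuMAX I 1.03 (0.892 to 1.19) for T6-12A and 0.863 (0.722 to 1.03) for T10-12A. The chromosome 13 form was thus the more abundant one in both uncultured prepuberal testes, and the cultured libraries stood below their own starting testis with intervals apart in 4 of 4 cases. The ratio in T6 was 3.44 times that in T6-12K and 2.56 times that in T6-12A, and the ratio in T10 was 2.00 times that in T10-12K and 2.06 times that in T10-12A. Whether reads of miR-23a-3p and miR-23b-3p were counted for each other was not tested. The sequence of miR-23b-3p was not matched, and the handling of reads that match more than 1 miRNA is not given.

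The same ratio for miR-27, miR-27b-3p per miR-27a-3p, was 103 (96.2 to 109.6) in T6, 61.2 (58.1 to 64.4) in T10 and 33.1 (28.6 to 38.3) in TAD. It was 39.8 (37.7 to 42.1) for T6-12K and 48.9 (45.9 to 52.1) for T10-12K with KSR, and 59.2 (56.1 to 62.4) for T6-12A and 62.8 (58.9 to 66.9) for T10-12A with AlbuMAX I. T6 was again the highest, and both 6.5 dpp cultures and T10-12K lay below their starting testis with intervals apart, whereas T10-12A overlapped T10. For the 5p strands, miR-27b-5p per miR-27a-5p was 7.31 (6.02 to 8.89) in T6, 5.61 (4.52 to 6.98) in T10 and 5.00 (2.08 to 12.0) in TAD, 3.54 for T6-12K and 5.16 for T10-12K with KSR, and 4.33 for T6-12A and 2.87 for T10-12A with AlbuMAX I. Here the intervals were apart from the starting testis in both 6.5 dpp cultures and T10-12A, and not in T10-12K. In all 3 ratios T6 had the highest share of the chromosome 13 form, but for the 5p strands its interval overlapped those of T10, T10-12K and TAD. Since miR-27a-3p differs from miR-27b-3p by 1 base and had between 0.974% and 3.02% of its reads, and since the handling of reads that match more than 1 miRNA is not given in the sources used here, the miR-27a-3p reads could in part be those of miR-27b-3p. This was not tested.

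**Figure D4:**
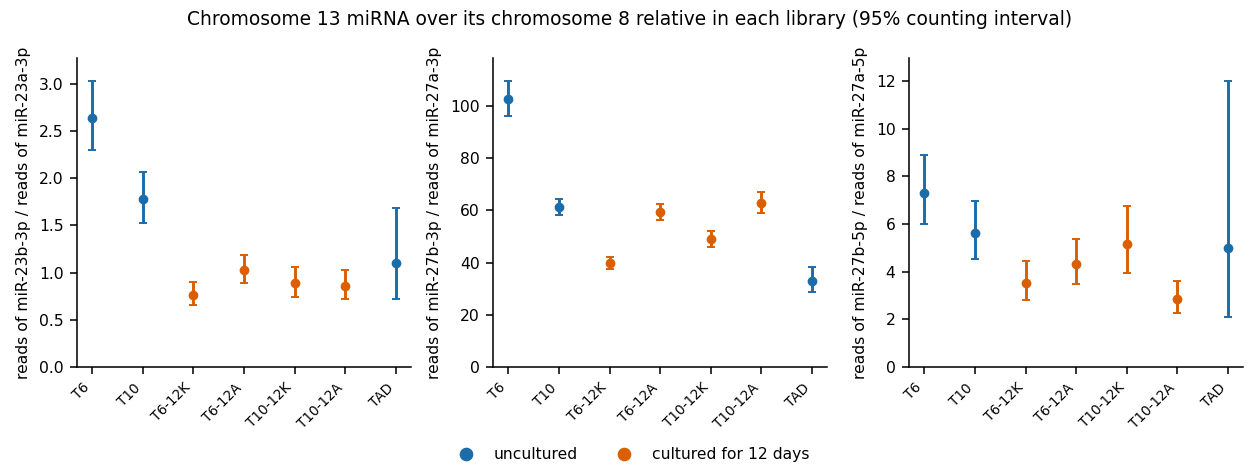
Reads of the chromosome 13 miRNA divided by reads of its chromosome 8 relative in each of the 7 libraries (uncultured blue, cultured orange), with bars for the 95% interval of counting error and vertical axes from 0. In all 3 panels T6 is the highest library, at 2.64, 103 and 7.31.

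Between the arms of a hairpin, the 3p strand exceeded the 5p strand in every library. Reads of miR-27b-3p per read of miR-27b-5p numbered between 113 (105 to 121) in T6 and 212 (188 to 238) in T10-12A, and T6 lay below all other libraries with intervals apart. miR-27a-3p per miR-27a-5p ranged from 8.03 (6.61 to 9.74) in T6 to 31.0 (13.7 to 69.9) in TAD, where the 5p count was 6 reads. miR-24-3p per miR-24-2-5p ranged from 3.74 (2.91 to 4.81) in T6 to 13.2 (10.4 to 16.8) in T6-12A, but only the 3p strand can also come from chromosome 13. In all 3, T6 had the lowest share of the 3p strand. Its interval overlapped that of T10-12A for miR-27a, at 9.66 (7.85 to 11.9), and that of TAD for miR-24, at 6.10 (3.13 to 11.9).

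Within the chromosome 8 cluster, miR-27a-3p per miR-23a-3p was 3.37 in T6, 5.54 in T10 and 4.65 in TAD, and between 3.61 and 3.96 in the 4 cultured libraries, whose intervals all overlapped. miR-24-3p per miR-23a-3p is not a ratio within that cluster alone, because miR-24-3p can also come from chromosome 13. It varied more, from 1.05 (0.891 to 1.24) in T6 to 2.70 (2.34 to 3.11) in T10-12A. It was 2.13 in T10 and 1.53 in TAD, 1.46 for T6-12K and 1.77 for T10-12K, and 2.55 for T6-12A. At both ages the AlbuMAX I culture exceeded the KSR culture in this ratio with intervals apart. miR-27b-3p per miR-23a-3p, which compares the clusters again, was 346 in T6, 339 in T10 and 154 in TAD, and between 150.0 and 227 in the cultured libraries.

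miR-24-3p and miR-3074-5p lay opposite each other at both loci and followed each other closely. miR-24-3p per miR-3074-5p was 1.65 (1.36 to 1.99) in T6, 1.30 (1.15 to 1.47) in T10 and 1.00 (0.701 to 1.43) in TAD, with 61 reads each. In the cultured libraries it lay between 1.17 and 1.23. Over the 7 libraries, log2 CPM of the pair had a Pearson correlation of 0.97. Whether the counting used strand is not given in the sources used here, so reads of these antisense neighbours cannot be told apart with certainty. Counted as 1 miRNA, they were past 2-fold higher in the 6.5 dpp cultures and in T10 against T6.

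Between the media, no member was past 2-fold at either age. At 6.5 dpp, 26.6% of all miRNAs were past 2-fold higher with AlbuMAX I and 5.74% lower. At 10.5 dpp, 5.44% were higher and 5.44% were lower. miR-24-3p and miR-3074-5p were higher with AlbuMAX I at both ages, by log2 ratios of 0.83 (0.67 to 0.99) and 0.75 (0.58 to 0.92) at 6.5 dpp and of 0.43 (0.26 to 0.60) and 0.45 (0.26 to 0.63) at 10.5 dpp, under the 4 other scalings too. At 6.5 dpp the median log2 ratio of all miRNAs was 0.64, and 2 of 9 members lay above it. miR-23a-3p (0.02) and miR-27a-3p (0.03) hardly differed between the media in CPM at this age, and stood at -0.54 and -0.52 with median-of-ratios size factors. At 10.5 dpp, miR-27a-3p stood at -0.31 (-0.44 to -0.18) and miR-27b-5p at -0.44 (-0.68 to -0.21), both lower with AlbuMAX I.

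As a description over the 7 libraries, which differ in depth and share a strong uncultured to cultured contrast, the members were most like different miRNAs of the table. Correlations are Pearson's r of log2 CPM with 118 other miRNAs that averaged 100 CPM or more and had reads in every library. miR-27b-3p was most like let-7i-5p (0.99), miR-125a-5p (0.95) and miR-99a-5p (0.93), and miR-23b-3p most like let-7a-5p (0.98), let-7c-5p and let-7f-5p (both 0.96). miR-27b-5p was most like miR-98-5p (0.95), miR-99b-5p (0.93) and miR-148a-3p (0.91). With median-of-ratios size factors or under the trimmed mean of M-values, miR-210-3p took the place of let-7i-5p for miR-27b-3p, at 0.99, and let-7f-5p came first for miR-23b-3p.

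miR-23a-3p was most like miR-222-3p (0.94), miR-21a-5p (0.90) and miR-146b-5p (0.82), and miR-24-2-5p most like the same 3, at 0.96, 0.93 and 0.84. miR-24-3p was most like miR-146a-5p (0.89), miR-146b-5p (0.88) and miR-21a-5p (0.85), and miR-3074-5p most like miR-146a-5p (0.93), miR-146b-5p (0.92) and miR-101a-3p (0.88). miR-27a-3p was less like any other miRNA, with miR-146b-5p (0.77), miR-7210-5p (0.74) and miR-143-3p (0.73) first. miR-27a-5p was most like miR-10b-5p (0.94), miR-210-3p (0.94) and let-7i-5p (0.82). In CPM, correlations among the members sorted by cluster except for miR-27a-5p. Among the other strands encoded in a single cluster, they lay between 0.52 and 0.82 within a cluster. Across the clusters these strands had between -0.78 and 0.13. Within a cluster they were 0.82 for miR-23a-3p with miR-24-2-5p and for miR-27b-3p with miR-27b-5p, but 0.52 for miR-27b-3p with miR-23b-3p and 0.01 for both arms of miR-27a. Across the clusters, miR-27b-3p had 0.79 with miR-27a-5p, -0.14 with miR-27a-3p, and miR-23a-3p had -0.58 with miR-23b-3p. miR-27a-3p had 0.86 with miR-3074-5p. These correlations among members were taken in CPM only, and the sorting by cluster can depend on that scaling. In T6-12K over T6, the log2 ratio of miR-27b-3p was -0.49 in CPM but 0.49 with median-of-ratios size factors. That of miR-23a-3p was 0.71 and 1.70.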

How the data were processed

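The authors trimmed the reads, checked them with FastQC, aligned them with Bowtie to mm10 and then to miRBase 21. HTSeq and DESeq are named in the submitters' processing notes. The counting of reads matching several miRNAs, the use of strand and the method behind the scaling are not given in the sources used here. The deposited values are a signal, reads divided by 1 factor per library. The design had allowed for counts scaled in this way, so reads were recovered from the largest common step of the low values in each library. Whole reads (within 0.1) came out for 100% of values below 10000 reads, a procedure also tested on simulated data. Between 1628770 and 13397407 reads were recovered per library.

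CPM carry Wilson intervals and ratios log-scale intervals, at 95%. Past 2-fold means a log2 ratio of at least 1 or at most -1 in every pair of libraries compared, with values at 0 set to 5 reads. No test was run with 1 library per condition. Alternatives covered 4 scalings (median-of-ratios size factors, trimmed mean of M-values with 30% of M and 5% of A trimmed, values as deposited, CPM without miR-10b-5p and miR-143-3p), unscaled reads, in which differences in depth remain, a minimum of 50 reads, a mean of at least 100 CPM for the background, 1.5-fold, log2(CPM + 1) and leaving out libraries. Members and lists were chosen with earlier results of these data known. Every member is named, each with the 3 miRNAs most alike. The grouping by cluster, the ratios of miR-27b to miR-27a strands and of the miR-27a arms, the comparison of counting intervals and the joint count of miR-24-3p and miR-3074-5p were added after the values had been seen. Software was matplotlib 3.10.9, scipy 1.17.1, pandas 2.3.3 and numpy 2.4.6 under Python 3.11.15.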

Additional observations from a re-analysis of the deposited data

Results flagged for a closer look

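One contrast had opposite directions at the 2 ages. miR-27b-5p stood at a log2 ratio of AlbuMAX I over KSR of 0.28 (0.07 to 0.49) at 6.5 dpp and of -0.44 (-0.68 to -0.21) at 10.5 dpp, a difference of 0.72 between the ages. The difference was not tested, since each condition had 1 library. With median-of-ratios size factors, the 6.5 dpp ratio was -0.28, and both ages then had the same direction.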

How the results depend on the processing

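Counts of members past 2-fold moved with the scaling. Unscaled reads leave the depths as they are, between 1628770 reads in TAD and 13397407 in T10, so that shallower libraries come out lower by construction. For T10 over T6 the count of 1 became 2 in the values as deposited (12.1% of all miRNAs higher) and 2 without miR-10b-5p and miR-143-3p (12.4% higher). At 1.5-fold it was 5, 3 higher and 2 lower, beside 19.9% and 13.3% of all miRNAs. For TAD against both prepuberal testes the count of 1 became 0 with median-of-ratios size factors, 0 with the trimmed mean of M-values and 0 with at least 50 reads in every library. It was 2 without miR-10b-5p and miR-143-3p (31.1% of all miRNAs lower) and 4 in the values as deposited (47.4% lower). In unscaled reads it was 9 (85.8% lower) and at 1.5-fold 3 (39.9% lower). Leaving out T6 gave 1 (34.4% lower). Leaving out T10 gave 3, 1 higher and 2 lower, beside 25.7% and 37.8% of all miRNAs. For the 6.5 dpp cultures the count of 2 became 4, all higher, under 3 scalings. These were median-of-ratios size factors (13.6% of all miRNAs higher), the trimmed mean of M-values (14.8%) and CPM without miR-10b-5p and miR-143-3p (12.7%). At 1.5-fold it was 6, 4 higher and 2 lower, beside 10.9% and 47.4% of all miRNAs. It was 1 in unscaled reads (6.34% higher) and 1 with miR-24-3p and miR-3074-5p counted as 1 (7.88% higher). Leaving out T6-12K gave 2 (12.4% higher). Leaving out T6-12A gave 3, 2 higher and 1 lower, beside 10.9% and 56.8% of all miRNAs. For the 10.5 dpp cultures the count of 0 became 4, 5 and 2 under the same 3 scalings (11.8%, 16.0% and 10.3% of all miRNAs higher). It was 1, lower, in unscaled reads (64.7% lower) and 3, all higher, at 1.5-fold (10.9% higher). Leaving out a culture gave 0 to 1 (1 without T10-12K, miR-3074-5p, beside 10.6% of all miRNAs higher). AlbuMAX I over KSR gave 0 members at both ages under every scaling. At 1.5-fold it gave 3 at 6.5 dpp, all higher, beside 51.1% of all miRNAs higher and 10.3% lower. The 5 members above all uncultured libraries (4.83% of all miRNAs) became 7 under each of those 3 scalings (11.2%, 13.3% and 8.46%). They became 4 in the values as deposited (5.44%) and 4 with miR-24-3p and miR-3074-5p counted as 1 (4.55%). In unscaled reads 0 remained (3.02%), with at least 50 reads in every library 2 (4.52%) and with counting intervals apart 0 (1.81%). Leaving out a library gave 5 to 7. The 7 came without TAD, 6 higher and 1 lower, beside 11.2% and 57.7% of all miRNAs. The log2 ratio of miR-3074-5p in TAD over T6 was -1.52 in unscaled reads, a reversal given by the depths of these libraries.

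Of the 81 log2 ratios of members, the direction was the same for 71 with median-of-ratios size factors, 72 with the trimmed mean of M-values, 66 in the values as deposited, 72 without miR-10b-5p and miR-143-3p, 52 in unscaled reads and 81 with log2(CPM + 1). The miRNA most like a member was the same for 3 to 5 of the 9 under the other settings. Apart from unscaled reads, the cause of these shifts was not tested. Ratios within a library carry no scaling. No paired analysis was possible because each condition had 1 library; cultures were compared with the uncultured testis of their starting age. Depth limits TAD most, where miR-27a-5p rested on 6 reads and miR-24-2-5p on 10.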
